A study of Mus musculus with 6 samples.

Results

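Molecular chaperones and disulfide isomerases were followed in RNA sequencing of the mouse habenula, a small epithalamic brain region. Members were genes whose symbols begin with Hspa, Hspb, Hspd, Hspe, Hsph, Hsp90, Dnaja, Dnajb, Dnajc or Pdia, with a digit or the letter a directly after, together with the 8 subunits of the cytosolic chaperonin TRiC. Pseudogene symbols, Hspb11 and Dnajb14 were left out. This gave 84 of the 55359 genes in the deposited table. Of these, 72 passed a filter on low values (mean FPKM of 1 or more across the 6 libraries), as did 14539 genes in all. The libraries were 3 from Tet2 conditional knockout (Tet2 cKO) mice and 3 from wild-type (WT) mice, all C57BL/6 and aged 2 months. The Tet2 protein oxidises methylated cytosine in DNA. The sources used here give neither the Cre driver nor the deleted exons, and do not say whether libraries are separate animals, so p-values reflect only the spread among these libraries, which may be technical. Tet2 itself stood at 4.47, 4.02 and 3.96 FPKM in the libraries labelled Tet2 cKO and at 3.45, 3.46 and 3.71 FPKM in WT, so the whole-gene level was not lower under the Tet2 cKO label. A whole-gene count still holds reads of exons that were not deleted. Directions below are those of the libraries so labelled.

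Chaperones bind unfolded or unstable proteins and, mostly in cycles of ATP use, let them fold, hold them or hand them on. Hsp70 proteins (Hspa genes) bind short exposed stretches, J-domain proteins (Dnaj genes) bring clients to them and start their ATP hydrolysis, Hsp90 proteins act later on kinases and receptors, and small heat shock proteins (Hspb genes) hold aggregating proteins without ATP. Cytosolic heat stress acts through the factor Hsf1 on heat shock elements. Unfolded protein in the endoplasmic reticulum (ER) acts in part through Xbp1 and Atf6 on ER stress elements. In the ER, Hspa5 (BiP) and the protein disulfide isomerases (Pdia genes) fold secreted and membrane proteins.

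By the usual location of their proteins, 43 members (34 tested) were placed in the cytosol or nucleus and 8 (8 tested) in TRiC, which together are called cytosolic here. The ER held 16 members (15 tested) and the mitochondrion 8 (8 tested). The other 9 (7 tested) act elsewhere, were not assigned or, as Hspbap1, met the rule by its letters alone. Read literally, the rule leaves out Hsp90b1, the Hsp90 of the ER, and P4hb, the founding disulfide isomerase, so both are given beside the members.

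The 12 members below the filter were Dnajb13, Dnajb7, Dnajb8, Dnajc5b, Dnajc5g, Dnajc22, Hspb2, Hspb3, Hspb7, Hspb9, Pdia2 and Hspbap1. Dnajb13 lay just outside at a mean of 0.99 FPKM, and Dnajc5g had no count in any of the 6 libraries.

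Library totals lay between 16089676 and 17917987 counts. The members took 0.919%, 0.969% and 0.952% of all FPKM in Tet2 cKO libraries and 0.924%, 0.957% and 0.972% in WT. WT replicate 3 stood apart from the other 5 libraries, at -34.7 on a first principal component that held 31.7% of the variance, and many results below are therefore also given without it. Beside the tissue label, 12 habenula neuron markers summed to 573, 463 and 547 FPKM in Tet2 cKO libraries and 581, 602 and 505 FPKM in WT. Much of each sum was Calb2, at 274, 251 and 274 FPKM in Tet2 cKO libraries and 306, 273 and 332 FPKM in WT. Calb2 was highest in WT replicate 3, while 10 of the 12 markers were lowest there, which the sum does not show. None of these markers was at 0 in every library, which by itself does not check the label. In bulk tissue, fewer cells of a type and less RNA per cell cannot be told apart.

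No chaperone gene differed between Tet2 cKO and WT past the test. The edgeR quasi-likelihood test called 0 of the 72 tested members at a Benjamini-Hochberg adjusted p under 0.05, where it called 0.0% of all 14539 genes. Adjusted p was 0.9999 for every tested member in edgeR. At an unadjusted p under 0.05 there was 1 member, Hspb8, against 2.57% of all genes. On library-normalised counts, 0 members lay wholly above WT (3.0% of all genes) and 2 members, Dnaja2 and Dnaja4, lay wholly below it (4.07% of all genes). On FPKM as deposited the 2 lying below were Dnaja4 and Hspa2.

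Cytosolic and ER members had medians close to 0. The median log2 difference, Tet2 cKO minus WT, was -0.01 over 42 cytosolic members and -0.05 over 15 ER members, beside -0.002 over all tested genes. Values were below 0 in 25 of the 42 cytosolic and 10 of the 15 ER members. Without WT replicate 3 the medians became 0.03 and -0.01, with 15 of 42 and 8 of 15 below 0. The ER members divided by family. The 9 outside the Dnajc family had a median of -0.16, and all 9 lay below 0, but without WT replicate 3 their median was 0.02 and 4 of 9 lay below 0.

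**Figure D1:**
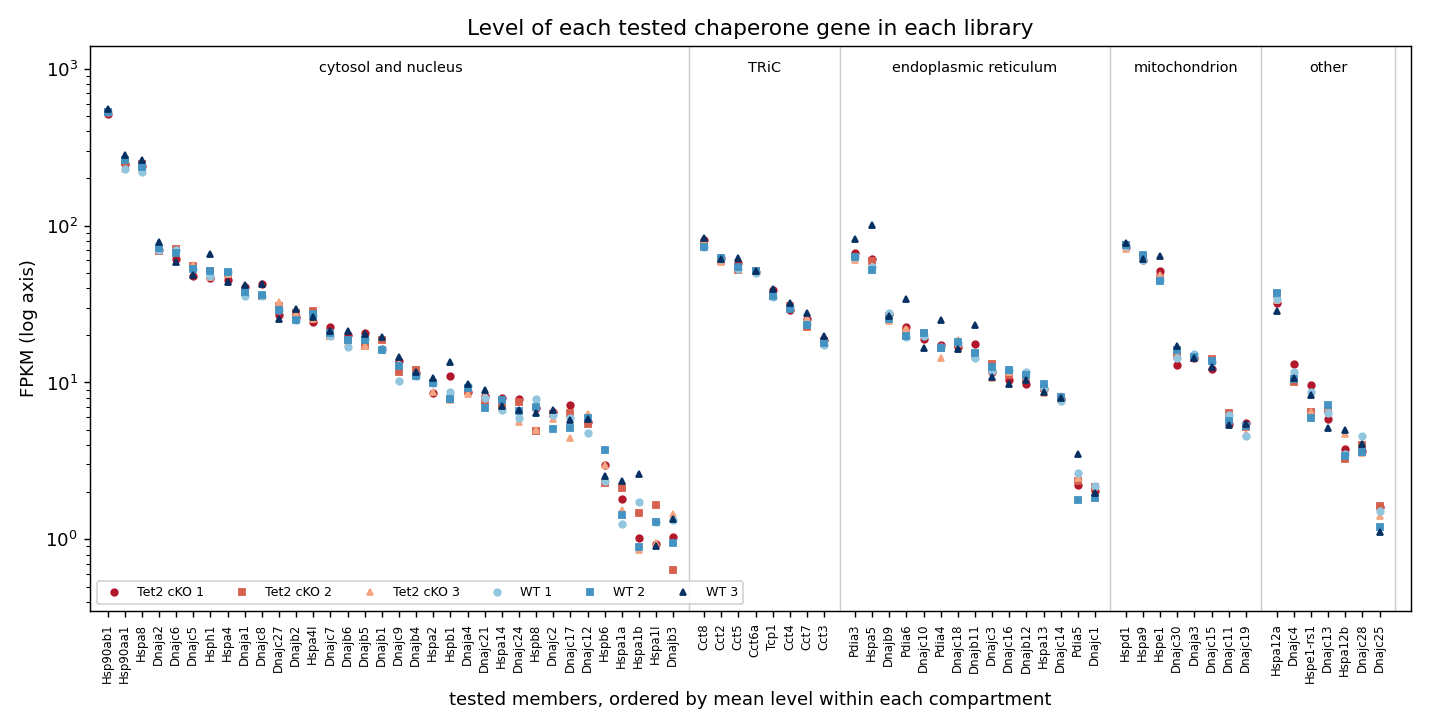
FPKM on a log axis for the 72 tested members in each of the 6 libraries (red shades, Tet2 cKO; blue shades, WT), grouped by compartment and ordered by mean level. Hsp90ab1 is the highest at about 533 FPKM, the libraries of most genes lie on top of each other, and WT 3 stands above the rest in Hspa5, Pdia6, Pdia4 and Dnajb11.

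Levels spanned more than 2 orders of magnitude, and the cytosolic Hsp90 and Hsp70 genes led them. Averaged over the 6 libraries, Hsp90ab1 (the constitutive cytosolic Hsp90) stood at 533 FPKM, Hsp90aa1 (its stress-responsive paralog) at 251 FPKM and Hspa8 (the constitutive Hsp70, Hsc70) at 239 FPKM. Hsp90aa1 and Hspa8 overlapped over the libraries, while Hsp90ab1 lay above both in every library. Next came the TRiC subunit Cct8 at 77.3 FPKM, the mitochondrial chaperonin Hspd1 at 74.4 FPKM, Dnaja2 at 71.7 FPKM, the ER isomerase Pdia3 at 66.7 FPKM, and Dnajc6 (auxilin, which uncoats clathrin vesicles at synapses) at 66.3 FPKM. Hspa5 followed at 64.0 FPKM and the mitochondrial Hsp70 Hspa9 at 62.4 FPKM, and neighbours from Cct8 to Hspa9 overlapped in their libraries. The inducible Hsp70 genes were near the bottom, Hspa1a at 1.75 FPKM and Hspa1b at 1.43 FPKM.

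Over ER members, the log2 excess of WT replicate 3 over the mean of WT replicates 1 and 2 had a median of 0.008. Hspa5 held the largest such excess of the 15 tested, at 0.94. BiP, its product, is the ER Hsp70 and holds the stress sensors inactive. Hspa5 (ENSMUSG00000026864, GRCm38 chromosome 2, plus strand, from 34771970 to 34777547) stood at 61.7, 59.3 and 55.2 FPKM in Tet2 cKO libraries and at 54.2, 51.9 and 102 FPKM in WT. The 3 Tet2 cKO libraries lay above WT replicates 1 and 2 and well below WT replicate 3, so the groups overlapped. The log2 difference was -0.25 (SE 0.218, unadjusted p = 0.287). Without WT replicate 3 it was 0.15 (unadjusted p = 0.048), with the sign turned. The level in WT replicate 3 was 1.92 times the mean of WT replicates 1 and 2.

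The sites below are shown because they match short sequences through which ER stress is known to act in part. RefSeq windows from 250 bases before to 50 bases after a gene's start, on GRCm38.p6, were found for 68 of the 84 members. They were searched on both strands for the ER stress element (CCAAT, 9 bases, CCACG) and for ER stress element II (ATTGG, 1 base, CCACG). Matches of the elements did not overlap each other in these members. Each line gives 30 bases, read in the direction of the gene, with the matched element in capitals.
Hspa5, chr2:34772020-34772049, plus strand: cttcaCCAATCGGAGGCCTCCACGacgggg
Pdia6, chr12:17266486-17266515, plus strand: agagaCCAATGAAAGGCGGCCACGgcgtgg
Dnajc3, chr14:118937822-118937851, plus strand: cacaaCCAATCAGCGCCAACCACGacccgg
Dnajb11, chr16:22857843-22857872, plus strand: ccggcggcgATTGGCCCACGcctggctgct

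The element began 65 bases before the RefSeq start in Hspa5, 98 before it in Pdia6 and 105 before it in Dnajc3, and 7 bases after it in Dnajb11. GENCODE M21 starts the Hspa5 gene further upstream, so by that annotation the Hspa5 site lies inside the gene. The ER stress element was in 0.119% of the 32851 windows of all genes, and element II in 0.0365%. As shares of the 27025 genes with a window these were 0.137% and 0.0444%. The ER stress element was in 3 of the 14 ER members with a window and in 0 of the 42 cytosolic members with one. Element II was in 1 of the 14 ER members. The other ER members with a window, Pdia3, Pdia4 and Pdia5 among them, held neither. The non-member Hsp90b1 held 2 matches. A match describes these letters and is neither a shown site nor a cause, and no match says only that the letters are not in the window.

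The tested disulfide isomerases also had WT replicate 3 as their highest library. Pdia6, an isomerase that binds BiP and acts on the stress sensors, stood at 22.6, 21.4 and 21.9 FPKM in Tet2 cKO libraries and at 19.5, 19.9 and 34.3 FPKM in WT. The log2 difference of Pdia6 was -0.17 (SE 0.189, unadjusted p = 0.388), and without WT replicate 3 it was 0.16 (unadjusted p = 0.0357). Exons of Pdia6 overlap Atp6v1c2 on the opposite strand, and no strand setting is given. However, 0.0% of the 75-base stretches of Pdia6 recur in other annotated transcripts, searched on both strands. How reads at the overlap were counted is not known.

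Pdia4, a large isomerase with several thioredoxin domains, stood at 17.3, 16.6 and 14.3 FPKM in Tet2 cKO libraries and at 16.9, 16.7 and 24.9 FPKM in WT. The difference was -0.29 on the log2 scale (SE 0.155, unadjusted p = 0.0955), and -0.06 without WT replicate 3. Pdia3 (ERp57), which works with calnexin and calreticulin on glycoproteins, stood at 67.4, 63.5 and 60.6 FPKM in Tet2 cKO libraries and at 62.9, 63.5 and 82.1 FPKM in WT. The groups overlapped in both genes, and WT replicate 3 was the highest library in each. The log2 difference of Pdia3 was -0.13 (SE 0.106), and 0.02 without WT replicate 3. The low isomerase gene Pdia5 lay between 1.79 and 3.52 FPKM, again with WT replicate 3 highest.

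Several J-domain proteins of the ER are partners of BiP. Dnajb11 (ERdj3), a lumenal partner that binds clients directly, stood at 17.5, 15.2 and 14.9 FPKM in Tet2 cKO libraries and at 14.3, 15.5 and 23.1 FPKM in WT. WT replicate 3 was again the highest, at 1.55 times the mean of WT replicates 1 and 2. The log2 difference of Dnajb11 was -0.16 (SE 0.163, unadjusted p = 0.338), and 0.09 without WT replicate 3.

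Dnajb9 (ERdj4), a BiP partner that restrains the sensor Ire1, stood at 27.2, 26.4 and 24.8 FPKM in Tet2 cKO libraries and at 27.7, 25.5 and 26.6 FPKM in WT. Dnajc3 (p58IPK), another lumenal partner, stood at 11.6, 13.1 and 10.7 FPKM in Tet2 cKO libraries and at 11.8, 12.5 and 10.8 FPKM in WT. Dnajc10 (ERdj5), which is both a J-protein and a disulfide reductase, stood at 18.9, 20.7 and 20.5 FPKM in Tet2 cKO libraries and at 19.8, 20.6 and 16.5 FPKM in WT. WT replicate 3 was in the middle for Dnajb9, near the bottom for Dnajc3 and lowest for Dnajc10. Log2 differences were -0.03 (SE 0.0736) for Dnajb9, 0.005 (SE 0.0959) for Dnajc3 and 0.07 (SE 0.0918) for Dnajc10. The ratio of Hspa5 to Dnajc3, whose windows both hold an ER stress element, was 5.33, 4.53 and 5.19 in Tet2 cKO libraries and 4.61, 4.15 and 9.41 in WT.

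Of the other ER members, Hspa13, Dnajb12, Dnajc1, Dnajc14, Dnajc16 and Dnajc18 had log2 differences between -0.10 and 0.01. In none of them did WT replicate 3 exceed the mean of WT replicates 1 and 2 by more than 0.2 on the log2 scale. Outside the members, Hsp90b1 stood at 86.0, 89.0 and 87.8 FPKM in Tet2 cKO libraries and at 86.8, 91.4 and 118 FPKM in WT, a log2 difference of -0.18 (SE 0.108) and of -0.02 without WT replicate 3. P4hb stood at 40.1, 38.8 and 37.7 FPKM in Tet2 cKO libraries and at 38.8, 38.8 and 40.1 FPKM in WT, without a high library.

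**Figure D2:**
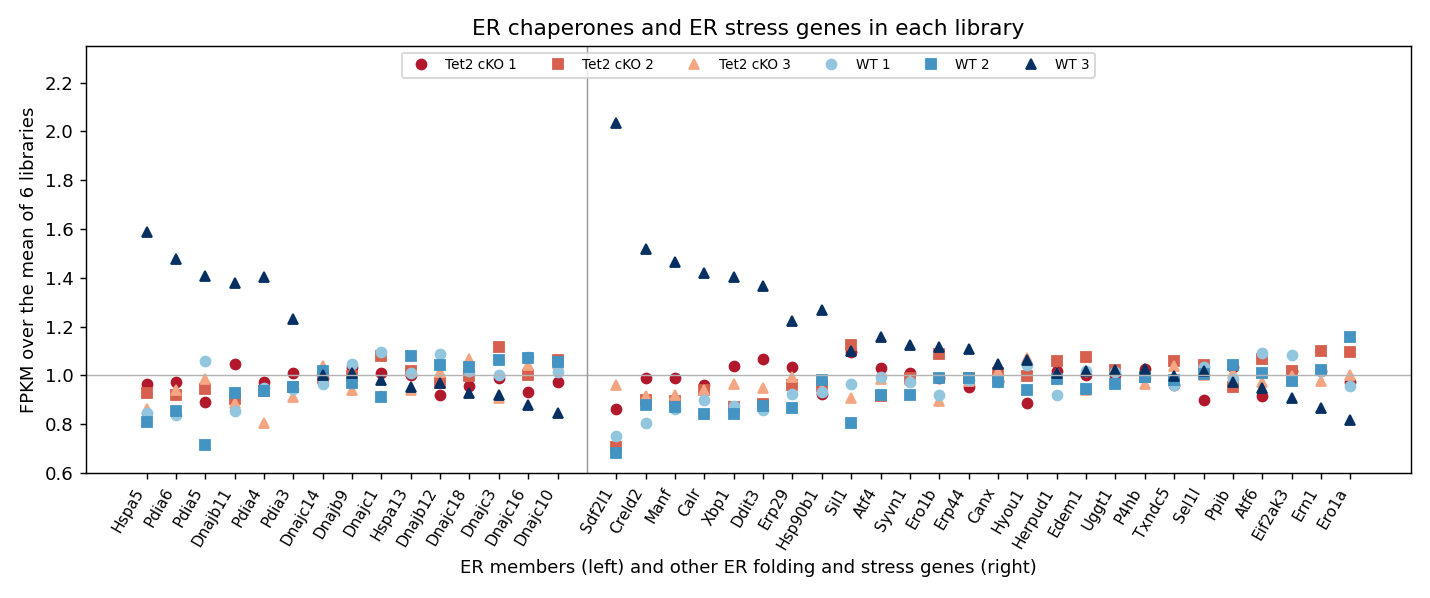
FPKM of each gene divided by its mean over the 6 libraries, for the 15 tested ER members (left) and 26 other genes of ER folding and stress (right), each side ordered by the excess of WT 3 over WT 1 and WT 2; red shades are Tet2 cKO libraries and blue shades WT. WT 3 stands clear of the other 5 libraries from Hspa5 to Pdia3 and from Sdf2l1 to Hsp90b1, and within or below them from Dnajc14 to Dnajc10.

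In the cytosol, the abundant chaperones had log2 differences near 0. Hsp90ab1 (ENSMUSG00000023944, GRCm38 chromosome 17, minus strand, from 45567775 to 45573271) stood at 515, 530.2 and 539.7 FPKM in Tet2 cKO libraries and at 529.6, 527 and 554 FPKM in WT. Hsp90aa1 stood at 248, 256 and 231 FPKM in Tet2 cKO libraries and at 231, 261 and 281 FPKM in WT. Hspa8 stood at 239.5, 249 and 226 FPKM in Tet2 cKO libraries and at 219, 235 and 263 FPKM in WT. The groups overlapped in all 3 genes, and WT replicate 3 was highest in each. Log2 differences were -0.03 (SE 0.0645) for Hsp90ab1, -0.08 (SE 0.0849) for Hsp90aa1 and -0.01 (SE 0.0824) for Hspa8. Hsp90aa1 and Hspa8 share 42.8% and 33.1% of their 75-base stretches with other annotated transcripts, mostly processed copies, so their levels depend on how such reads were counted. Of all tested members, 16 shared over 10% in this way and 34 shared none.

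Hsph1 (Hsp110, which releases nucleotide from Hsp70) stood at 46.0, 51.2 and 47.2 FPKM in Tet2 cKO libraries and at 47.8, 51.6 and 65.6 FPKM in WT. The gene's log2 difference was -0.20 (SE 0.113, unadjusted p = 0.106), and -0.04 without WT replicate 3. WT replicate 3 lay above the other 5 libraries, which overlapped.

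The heat-inducible Hsp70 genes were low and spread widely. Hspa1a stood at 1.82, 2.11 and 1.53 FPKM in Tet2 cKO libraries and at 1.25, 1.42 and 2.34 FPKM in WT. Hspa1b stood at 1.02, 1.47 and 0.86 FPKM in Tet2 cKO libraries and at 1.73, 0.89 and 2.59 FPKM in WT. Both were highest in WT replicate 3, and the groups overlapped. Their log2 differences had opposite signs, 0.11 (SE 0.251) for Hspa1a and -0.65 (SE 0.362, unadjusted p = 0.103) for Hspa1b, and without WT replicate 3 they were 0.45 and -0.23. The genes share 61.7% and 55.8% of their 75-base stretches with each other and with other transcripts, so the division of reads between them is uncertain. The related Hspa1l, at 71.1% shared, lay between 0.91 and 1.65 FPKM.

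Among other Hsp70 genes, Hspa2, a Hsp70 known from spermatogenesis that the brain also expresses, stood at 8.54, 9.92 and 8.67 FPKM in Tet2 cKO libraries and at 9.99, 9.99 and 10.7 FPKM in WT. Every Tet2 cKO library lay below every WT library on FPKM, by a narrow margin for replicate 2. Its log2 difference was -0.19 (SE 0.0959, unadjusted p = 0.0802), and -0.14 without WT replicate 3.

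The small heat shock proteins held the lowest p of all members. Hspb8, which works with the cochaperone Bag3 in selective autophagy, stood at 6.91, 4.87 and 4.96 FPKM in Tet2 cKO libraries and at 7.83, 7.01 and 6.39 FPKM in WT. Tet2 cKO replicates 2 and 3 lay below every WT library, while replicate 1 lay within the WT range, so the groups overlapped. The log2 difference was -0.35 (SE 0.156, unadjusted p = 0.0481), and -0.41 without WT replicate 3 (unadjusted p = 0.023). Leaving out WT replicate 1, WT replicate 2, Tet2 cKO replicate 2 or Tet2 cKO replicate 3 gave unadjusted p = 0.162, 0.0738, 0.167 and 0.165. Leaving out Tet2 cKO replicate 1 gave a log2 difference of -0.53 (unadjusted p = 0.0052 in edgeR). With limma voom and library weights it was -0.50 (unadjusted p = 0.00227). Hspb8 passed an adjusted p of 0.05 in none of these fits. Hspb1 (Hsp25 in mouse), which binds unfolding proteins and actin, stood at 11, 7.79 and 7.76 FPKM in Tet2 cKO libraries and at 8.69, 7.90 and 13.6 FPKM in WT. Here Tet2 cKO replicate 1 and WT replicate 3 were high, and the log2 difference of -0.20 (SE 0.224) became 0.09 without WT replicate 3. Hspb1 shares 46.4% of its 75-base stretches with other annotated transcripts, those of the processed pseudogene Hsp25-ps1 and of Gm9817. Hspb6 lay between 2.28 and 3.70 FPKM with no order by group.

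The cytosolic J-proteins serve the Hsp70 proteins of that compartment. Dnajb1, the main partner of inducible Hsp70, stood at 16.3, 18.7 and 16.3 FPKM in Tet2 cKO libraries and at 16.4, 16.1 and 19.4 FPKM in WT. Dnaja1, which serves Hspa8, stood at 40.7, 37.8 and 37.3 FPKM in Tet2 cKO libraries and at 35.6, 37.8 and 42.0 FPKM in WT. Both overlapped between groups, with log2 differences of -0.03 (SE 0.1) and -0.003 (SE 0.0775). Dnaja4 stood at 8.74, 8.79 and 8.48 FPKM in Tet2 cKO libraries and at 9.54, 9.25 and 9.78 FPKM in WT, with every Tet2 cKO library below every WT library. Its log2 difference was -0.14 (SE 0.0781, unadjusted p = 0.0951). Exons of Wdr61 on the opposite strand overlap Dnaja4, and 42.0% of its 75-base stretches recur in Wdr61 transcripts. The part of such reads in the difference was not tested. Dnaja2 stood at 70.4, 69.1 and 69.6 FPKM in Tet2 cKO libraries and at 69.5, 72.5 and 79.0 FPKM in WT, where the groups overlapped on FPKM but not after normalisation.

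On the higher side, no member was past an unadjusted p of 0.05. The 5 members with the smallest unadjusted p there were Dnajc25, Dnajc27, Dnajc10, Dnajc24 and Dnajb4. Dnajc25, a membrane J-protein, stood at 1.6, 1.62 and 1.40 FPKM in Tet2 cKO libraries and at 1.51, 1.19 and 1.12 FPKM in WT, a log2 difference of 0.27 (SE 0.171, unadjusted p = 0.149). Dnajc27, a small GTPase with a J domain, stood at 26.8, 30.8 and 32.6 FPKM in Tet2 cKO libraries and at 28.9, 28.8 and 25.6 FPKM in WT, a difference of 0.11 (SE 0.0894). The groups overlapped in both genes.

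Dnajc24, needed for diphthamide synthesis, stood at 7.79, 7.46 and 5.6 FPKM in Tet2 cKO libraries and at 5.91, 6.58 and 6.63 FPKM in WT, a log2 difference of 0.12 (SE 0.156). Dnajb4 stood at 11.5, 12 and 11.5 FPKM in Tet2 cKO libraries and at 11, 11 and 11.7 FPKM in WT, a difference of 0.04 (SE 0.0681). Tet2 cKO replicate 3 was the lowest library for Dnajc24, and WT replicate 3 lay within the Tet2 cKO range for Dnajb4. The Dnajc family as a whole had a median log2 difference of 0.03, with 20 of 25 tested members above 0, and 15 of 25 without WT replicate 3.

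The 8 TRiC subunits, which form a double ring that folds actin and tubulin, had differences in a narrow range. Tcp1 (the alpha subunit) stood at 38.7, 35.4 and 37.4 FPKM in Tet2 cKO libraries and at 34.9, 35.4 and 39.7 FPKM in WT. Cct2 (the beta subunit) stood at 62.3, 59.8 and 58.3 FPKM in Tet2 cKO libraries and at 61.1, 62.4 and 61.0 FPKM in WT. Both overlapped between groups, with log2 differences of 0.01 (SE 0.0739) and -0.04 (SE 0.0626). Over the 8 subunits log2 differences lay between -0.06 (Cct5) and 0.03 (Cct8). Although each subunit has a fixed place in the ring, their levels per length were unequal. Cct8 was 4.34, 4.10 and 4.11 times Cct3 in Tet2 cKO libraries and 4.2, 4.09 and 4.17 times Cct3 in WT. These ratios depend on the exonic size used for length, 3088 bases for Cct8 and 6370 bases for Cct3. The gap was smaller in counts, at 4346 for Cct8 and 2064 for Cct3 in Tet2 cKO replicate 1. In WT replicate 1 the counts were 3893 and 1912.

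The mitochondrial chaperonin is a chamber of Hspd1 (Hsp60) closed by a lid of Hspe1 (Hsp10). Hspd1 stood at 72.9, 75.6 and 70.7 FPKM in Tet2 cKO libraries and at 73.7, 75.5 and 78.1 FPKM in WT, a log2 difference of -0.06 (SE 0.0648), and 31.0% of its 75-base stretches recur in other transcripts. Hspe1 stood at 51.3, 46.0 and 48.4 FPKM in Tet2 cKO libraries and at 44.9, 44.3 and 63.7 FPKM in WT, a difference of -0.08 (SE 0.133) that became 0.13 without WT replicate 3. The groups overlapped in both genes. The ratio of Hspe1 to Hspd1 was 0.705, 0.609 and 0.684 in Tet2 cKO libraries and 0.609, 0.587 and 0.816 in WT. Hspa9 (mortalin), the mitochondrial Hsp70, stood at 60.6, 63.7 and 63.3 FPKM in Tet2 cKO libraries and at 60.4, 65.1 and 61.3 FPKM in WT, a difference of -0.002 (SE 0.064). The 8 mitochondrial members had a median log2 difference of -0.01.

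Hspd1 and Hspe1 lie head to head on chromosome 1, and their annotated exons overlap on opposite strands. A stretch between them is shown because it holds the heat shock element (GAA, 2 bases, TTC, 2 bases, GAA), searched on both strands. It lies before the RefSeq start of Hspe1 and before 1 of the 2 RefSeq starts of Hspd1. The other RefSeq start of Hspd1 is also its start in GENCODE M21, and from there the stretch lies inside the gene, and the window of that start held no element. Of the other members with a window, Hsph1 and Dnajb6 held it. In Hsph1 the element began 15 or 36 bases after a RefSeq start, and in Dnajb6 46 or 127 bases before one. By GENCODE M21 the Hsph1 and Dnajb6 sites both lie inside the gene. Hspa8, Hsp90aa1, Hsp90ab1 and Hspa9 are among the 16 members without a window and were not searched. Capitals mark the element, which is found at overlapping places in Hspe1.
Hspe1, chr1:55088051-55088080, plus strand: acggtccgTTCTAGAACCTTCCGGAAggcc
Hsph1, chr5:149636279-149636308, minus strand: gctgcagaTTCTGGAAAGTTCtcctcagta
Dnajb6, chr5:29735844-29735873, plus strand: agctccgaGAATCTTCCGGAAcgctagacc

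The heat shock element was in 0.603% of all windows and in 0.662% of all genes with a window. Among members with a window, it was in 2 of 42 cytosolic and in 0 of 14 ER members. Of the genes that hold it, Hspe1 was 1.43 times, Hsph1 1.33 times and Dnajb6 1.20 times as high in WT replicate 3 as in the mean of WT replicates 1 and 2. Dnajb6, which keeps aggregating proteins soluble, stood at 20.1, 18.7 and 18 FPKM in Tet2 cKO libraries and at 17.0, 18.7 and 21.2 FPKM in WT, with the groups overlapping. Hspd1, with the same stretch before 1 of its starts, showed no such excess. The windows of Hspa1b, Hspa1a and Hspb1 held no match, and these genes were 2.07, 1.74 and 1.64 times as high in WT replicate 3. The part of the element in these values was not tested.

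WT replicate 3 was the library that most often held the highest value of a chaperone gene. It was the highest of the 6 libraries for 36 of 72 tested members, against 27.1% of all genes, and for 26 of 42 cytosolic members, 7 of 8 TRiC subunits, 6 of 15 ER members and 3 of 8 mitochondrial members. It lay more than 0.2 on the log2 scale above the mean of WT replicates 1 and 2 in 25 members, against 23.3% of all genes, and more than 0.2 below it in 10, against 24.4% of all genes. The largest folds were 2.07 for Hspa1b, 1.92 for Hspa5, 1.75 for Pdia6, 1.74 for Hspa1a, 1.64 for Hspb1, 1.61 for Pdia5 and 1.55 for Dnajb11, genes singled out after their values were seen. As a median deviation from the mean of 6 libraries on the log2 scale, the ER members outside the Dnajc family stood at -0.02, -0.06 and -0.10 in Tet2 cKO libraries and at -0.05, -0.07 and 0.49 in WT. All 15 tested ER members stood at -0.03, -0.01 and -0.09 in Tet2 cKO libraries and at 0.02, -0.05 and 0.01 in WT. The cytosolic members, Dnajc genes included, stood at -0.01, -0.001 and -0.05 in Tet2 cKO libraries and at -0.05, -0.01 and 0.11 in WT. Without their Dnajc genes, the cytosolic members stood at 0.13 in WT replicate 3. This is 1 library, so no test was made of it.

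**Figure D3:**
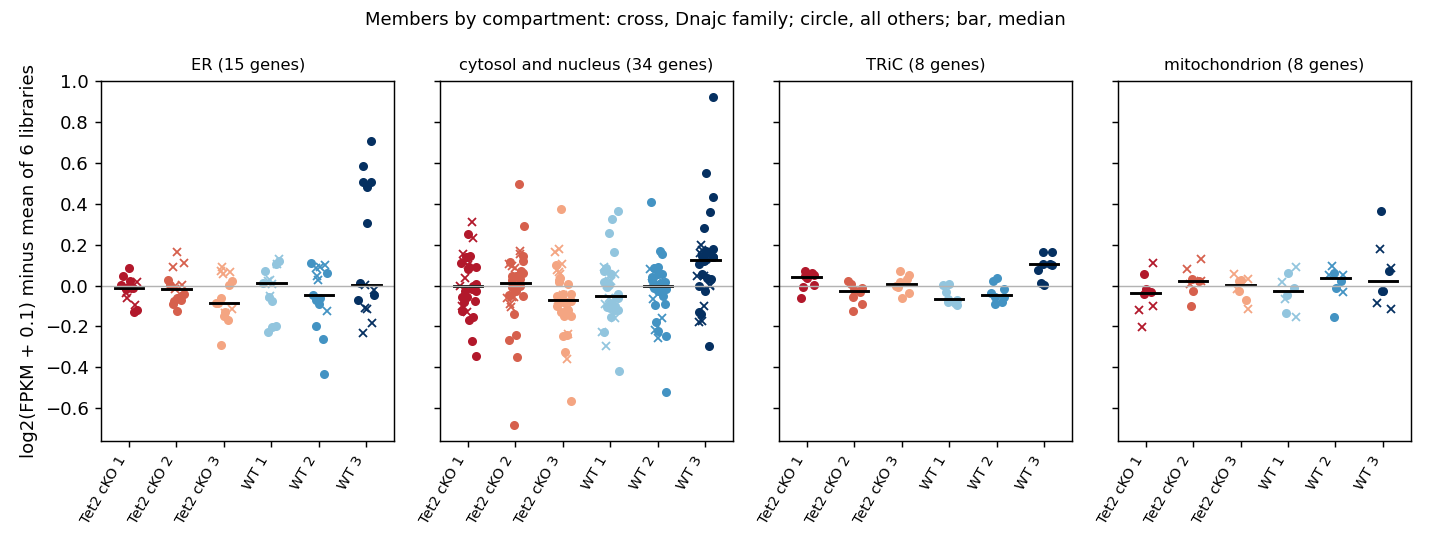
Log2(FPKM + 0.1) of each tested member minus its mean over the 6 libraries, by compartment; crosses are Dnajc genes, circles all others, and bars the median of the panel. In the ER panel the circles of WT 3 form a separate group of 6 above 0.2 while its crosses do not, and in the TRiC panel no subunit of WT 3 lies below 0.

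Summed over members, the ER genes stood at 303, 297 and 285 FPKM in Tet2 cKO libraries and at 290.3, 289 and 379 FPKM in WT. The cytosolic genes summed to 1989, 2016 and 1974 FPKM in Tet2 cKO libraries and to 1943, 2000 and 2138 FPKM in WT. The ratio of the ER sum to the cytosolic sum was 0.153, 0.147 and 0.1445 in Tet2 cKO libraries and 0.1495, 0.145 and 0.177 in WT. WT replicate 3 had the highest ratio, and the other 5 libraries overlapped between groups.

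Genes outside the members that work with them were read from lists. None of their genes passed the test. Of 24 heat shock factors and cochaperones, 16 lay below 0 and 8 above in Tet2 cKO minus WT, and the median was -0.05, against 0.06 without WT replicate 3. Hsf1, the heat shock factor, stood at 5.94, 5.56 and 6.44 FPKM in Tet2 cKO libraries and at 5.79, 5.87 and 7.20 FPKM in WT. Stip1 (Hop, which joins Hsp70 and Hsp90) stood at 79.5, 85.3 and 84.7 FPKM in Tet2 cKO libraries and at 87.0, 86.4 and 112 FPKM in WT, a log2 difference of -0.20 (SE 0.104, unadjusted p = 0.0794). Stip1 lay below every WT library in each Tet2 cKO library. WT replicate 3 was more than 0.2 above WT replicates 1 and 2 in 16 of these 24 genes, led by Ptges3 (p23) at 0.65 and Bag1 at 0.60.

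Of 26 other genes of ER folding and ER stress, 19 lay below 0 and 7 above, with a median of -0.03, and of 0.04 without WT replicate 3. Sdf2l1, a lumenal partner of Dnajb11, stood at 5.17, 4.23 and 5.75 FPKM in Tet2 cKO libraries and at 4.49, 4.09 and 12.2 FPKM in WT, and had the lowest log2 difference of the list at -0.47 (SE 0.376). Manf, a secreted ER stress protein, stood at 15.4, 13.9 and 14.3 FPKM in Tet2 cKO libraries and at 13.4, 13.5 and 22.8 FPKM in WT. WT replicate 3 lay far above the other libraries in both. Its excess over WT replicates 1 and 2 was 0.85 for Creld2, 0.71 for Calr (calreticulin), 0.71 for Xbp1 and 0.66 for Ddit3 on the log2 scale, while the sensor genes Ern1, Eif2ak3 and Atf6 stood at -0.22, -0.18 and -0.14. Over the list it was above 0.2 in 12 of 26 genes.

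Prefoldin hands actin and tubulin to TRiC, and its list also held Pdcl and Pdcl3, which are not prefoldin subunits. The list had 5 of 8 genes below 0 and a median of -0.004, and of 0.14 without WT replicate 3. WT replicate 3 was more than 0.2 above WT replicates 1 and 2 in 7 of these 8 genes. Of 9 other genes of mitochondrial protein quality, 4 lay below 0 and 5 above, with a median of 0.007. Trap1, the mitochondrial Hsp90, stood at 25.6, 26.5 and 28.2 FPKM in Tet2 cKO libraries and at 29.2, 28.3 and 29.1 FPKM in WT. Every Tet2 cKO library of Trap1 lay below every WT library, with a log2 difference of -0.12 (SE 0.0711, unadjusted p = 0.135).

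Other measures also moved in WT replicate 3, though some of them not in it alone. Of 12 habenula neuron markers, 10 were more than 0.2 below WT replicates 1 and 2 in it, and of 6 tested GABAergic neuron markers 5 were more than 0.2 above. The 8 GABAergic markers summed to 71.8, 95.9 and 74.0 FPKM in Tet2 cKO libraries and to 74.6, 79.9 and 95.7 FPKM in WT. Tet2 cKO replicate 2 and WT replicate 3 were the highest in this sum. All 12 choroid plexus markers were lower in WT replicate 3 than in the mean of WT replicates 1 and 2, by more than 0.2 in 11 and with a median of -1.21, and of 7 tested ependymal markers 5 were more than 0.2 above. As a median log2 deviation from the mean of 6 libraries, the choroid plexus markers stood at 0.22, -1.14 and -0.78 in Tet2 cKO libraries. In WT they stood at 1.46, 0.61 and -0.31, so WT replicate 3 was not the lowest library. Transcript length moved too. Tested genes were divided by exonic size into 4 equal classes. The excess of WT replicate 3 over WT replicates 1 and 2, on the log2 scale, had a median of 0.14 in the shortest class and of -0.10 in the longest. As a median deviation from the mean of 6 libraries, WT replicate 3 stood at 0.10 in the shortest class and -0.07 in the longest. Tet2 cKO replicate 1 moved the same way, at 0.07 and -0.04. The excess below is again that over WT replicates 1 and 2. The class of Hspa5 had a median of -0.04 and that of Pdia6, Pdia5, Dnajb11, Pdia4 and Pdia3 a median of 0.05. The part of cell makeup and of length in the chaperone values was not tested.

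Markers of choroid plexus and ependyma lay to the lower side in Tet2 cKO libraries, without passing the test. All 12 choroid plexus markers and all 7 tested ependymal markers had log2 differences below 0. So did all 8 endothelial markers, 5 of 6 tested GABAergic and 8 of 12 habenula neuron markers. Above 0 lay 9 of 10 oligodendrocyte, 7 of 9 astrocyte and 6 of 8 microglia markers, while thalamic markers split 4 to 4. The choroid plexus markers summed to 833, 174 and 289 FPKM in Tet2 cKO libraries and to 1416, 846 and 454 FPKM in WT, and the 9 ependymal markers to 41.5, 46.9 and 37.6 FPKM in Tet2 cKO libraries and to 50.5, 53.1 and 63.6 FPKM in WT. Most of each choroid plexus sum was Ttr. It stood at 799, 158 and 269 FPKM in Tet2 cKO libraries and at 1347, 802 and 430 FPKM in WT. No marker of these lists was at 0 in every library. Their part in the chaperone values was not tested.

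Without WT replicate 3, an alternative for the overlap of groups added after the data were seen, 9 members lay wholly above WT (10.5% of all genes) and 6 wholly below (11.7% of all genes). The 9 were Hspa5, Pdia6, Hspe1, Hspa1a, Dnajb2, Dnajb4, Tcp1, Cct3 and Cct8, and the 6 were Dnaja2, Dnaja4, Hspa4, Hspb8, Dnajb12 and Dnajc16. Both shares, 15 of 72 members in all against 22.2% of genes, were near the background. At an unadjusted p under 0.05 there were then 3 members, Hspb8, Hspa5 and Pdia6, against 5.95% of all genes, and 0 of them passed the edgeR Benjamini-Hochberg threshold.

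**Figure D4:**
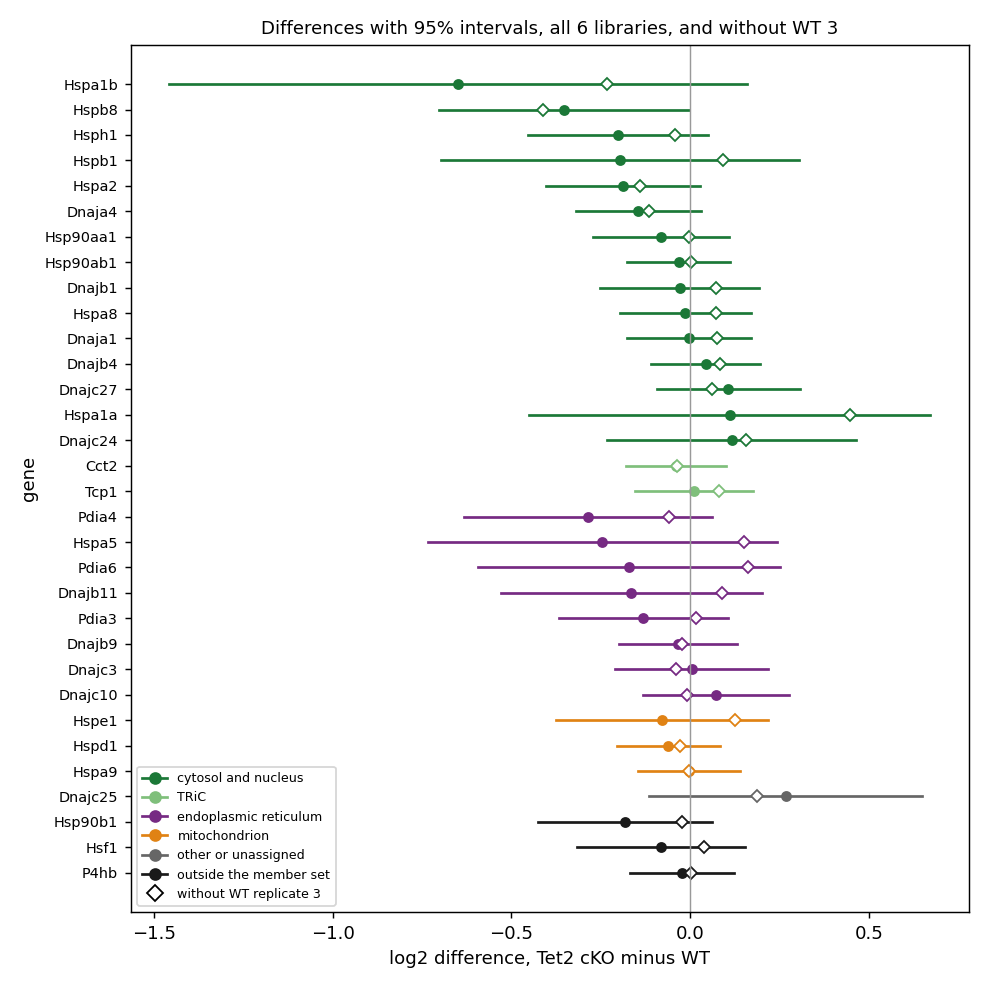
Log2 difference, Tet2 cKO minus WT, with 95% interval for the genes named by rule (filled points, all 6 libraries) and the same without WT replicate 3 (open diamonds), coloured by compartment. Hspb8 is the gene whose interval ends just below 0, and the ER points from Hspa5 to Pdia3 move to the right when WT replicate 3 is left out.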

How the data were processed

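Total RNA of the habenula was sequenced. Per the file headers and their whole-number values, the deposited table holds raw counts for each gene and library. It also holds FPKM values by the authors, which were recomputed from the deposited count, the exonic size and the library total to within 0.005. Per the submitters' processing notes, the tools were HISAT2 2.0.1, SAMtools 0.1.19, cutadapt 1.9.1 and FastQC 0.10.1, and the build was mm10. No read counter or strand setting is given in these sources, so reads that lie wholly where genes overlap on opposite strands cannot be told apart.

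Positions are those of GENCODE M21 on GRCm38, joined by gene identifier. The table's own coordinates differ (1494 of 52083 shared identifiers have the same start and end) and are not printed.

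Genes were tested with edgeR 4.0.16 (quasi-likelihood with TMM scaling, two-sided, without covariates, Tet2 cKO minus WT) under R 4.3.3, with Benjamini-Hochberg adjustment over all 14539 tested genes. The fit was tested on simulated data. Levels between genes are FPKM, which is per length. The excess of WT replicate 3 was computed on TMM-normalised counts per library total with a pseudocount of 0.1. Depth ran from 16089676 to 17917987 counts a library, and edgeR's common coefficient of biological variation was 10.4%. The share of 75-base stretches held in common with other transcripts was computed from the GENCODE M21 transcripts.

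The members, compartments and lists were chosen with earlier results of these data known. Named genes are a set list of abundant, inducible and ER members, the 5 tested members per direction with the smallest unadjusted p, and up to 4 genes with the smallest p of each other list. Any other was chosen after its values were seen. Alternatives were DESeq2 1.42.0 and its size factors, limma 3.58.1 on log2(FPKM + 1) or with 0.1, limma voom with library weights, other filters, a replicate block and each library left out.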

Additional observations from a re-analysis of the deposited data

Results flagged for a closer look

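The rows that the rule leaves out included 2 pseudogenes in which every Tet2 cKO library lay above every WT library. Dnajb6-ps stood at 13.4, 12.5 and 12.8 FPKM in Tet2 cKO libraries and at 10.5, 10.6 and 10.8 FPKM in WT. The log2 difference was 0.27 (SE 0.127). In edgeR its unadjusted p was 0.0611 and its Benjamini-Hochberg adjusted p was 0.9999. Dnajc19-ps stood at 3.27, 3.34 and 3.51 FPKM in Tet2 cKO libraries and at 2.31, 2.83 and 2.25 FPKM in WT. The log2 difference was 0.45 (SE 0.294), with unadjusted p = 0.161 in edgeR and a Benjamini-Hochberg adjusted p of 0.9999. Of all tested genes, 3.0% had Tet2 cKO libraries wholly above WT.

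These copies share 88.3% and 52.3% of their 75-base stretches with other transcripts, Dnajb6 and Dnajc19 among them, so their reads cannot be firmly assigned. The parent genes overlapped between groups, with log2 differences of -0.01 (SE 0.0915) for Dnajb6 and 0.005 (SE 0.106) for Dnajc19. The part of shared reads in the difference was not tested.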

How the results depend on the processing

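No member was called at an adjusted p under 0.05 in the main test or in any of the alternatives run, each library left out included. The number of genes called was 4 with DESeq2, 49 with no filter, 2 with filterByExpr, 2 with voom and library weights, and 0 to 3 without each library, where only the fits without WT replicate 2 and without WT replicate 3 called any. Unadjusted p was under 0.05 for 374 genes in the main test, 1109 with no filter, 962 with voom, and 228 to 865 without each library. Members at that p numbered 1 in the main test, 0 with DESeq2, 0 with limma at either pseudocount, 7 with no filter and 0 to 3 without each library. The 1 in the main test, Hspb8, lost it without Tet2 cKO replicate 2 or 3 or without WT replicate 1 or 2. Non-overlapping members numbered 2, and 15 without WT replicate 3, a setting added after the data were seen. The median of ER members was -0.16 without the Dnajc family. Same-numbered libraries did not deviate together in every pair, with correlations of -0.02, 0.13 and -0.10, where other pairs ran from -0.16 to 0.15. The main test therefore left the numbers unpaired. Such correlations cannot exclude a pairing by litter or batch, which the labels do not give. With the replicate block 346 genes were at an unadjusted p under 0.05 and 0 were called, and the medians of cytosolic and ER members stayed at -0.01 and -0.05.

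Of 32 named genes, 14 kept their sign under all 14 alternatives, and 14 turned without WT replicate 3. With voom and library weights, which gave WT replicate 3 a weight of 0.281, the log2 difference was 0.0401 for Hspa8, 0.038 for Dnaja1, 0.036 for Dnajb1, 0.036 for Hspa5, 0.0012 for Dnajb11, -0.051 for Dnajc3, 0.0812 for Pdia6, 0.0591 for Hspe1, 0.0082 for Hspa9 and 0.0208 for Hsf1. For Dnaja1 it was 0.0006 with DESeq2 size factors, 0.0006 with DESeq2, 0.0076 and 0.0078 with limma at pseudocounts of 1 and 0.1, and 0.0019 with no filter. For Hspa9 these were 0.0014, 0.0014, 0.0059, 0.006 and 0.0029, and 0.0007 with filterByExpr. Without each library in turn, differences that changed sign ran from -0.0613 to 0.4474 for Hspa1a, -0.0702 to 0.0712 for Hspa8, -0.0509 to 0.0015 for Hsp90ab1, -0.0533 to 0.0752 for Dnaja1, -0.0994 to 0.0728 for Dnajb1 and -0.3774 to 0.0932 for Hspb1. In the ER they ran from -0.4219 to 0.1501 for Hspa5, -0.0676 to 0.0047 for Dnajb9, -0.2931 to 0.0904 for Dnajb11, -0.0796 to 0.0749 for Dnajc3, -0.0079 to 0.1301 for Dnajc10, -0.1977 to 0.0173 for Pdia3, -0.3113 to 0.1611 for Pdia6 and -0.0401 to 0.0033 for P4hb. The rest ran from -0.1747 to 0.125 for Hspe1, -0.0215 to 0.0244 for Hspa9, -0.0223 to 0.0818 for Tcp1 and -0.1356 to 0.039 for Hsf1. The cause was not tested.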
